A study of Mus musculus with 9 samples.

Results

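Globozoospermia is male infertility with round-headed sperm that lack an acrosome, the cap-like vesicle over the nucleus that carries the enzymes and membrane proteins for fertilization. The results below are for 8 mouse genes linked, in humans or in mice, to this condition or a closely similar acrosome defect. They are Dpy19l2, Spata16, Spaca1, Pick1, Gopc, Ica1l, Ccdc62 and Atg7. They were chosen by symbol, each matched to 1 NCBI gene, and make up 8 of 21877 NCBI genes among 50493 features. All 8 had enough counts to be tested. The 9 RNA libraries come from testes of wild-type mice and hold 3 germ cell types, with 3 libraries of each: pachytene spermatocytes (PAC), which are in meiotic prophase, round spermatids (RS), the haploid cells that build the acrosome, and elongating spermatids (ES), in which it spreads over the condensing nucleus. For the mice, the labels give no age, no strain and no number of animals behind a library, and for the cells no isolation method. The design text calls the 3 libraries of a cell type biological replicates.

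The acrosome forms in round spermatids when vesicles leave the Golgi, dock at the nuclear envelope, fuse into 1 large granule and spread as a cap. PICK1, GOPC, ICA1L and SPATA16 act at the Golgi and on the vesicles, ATG7 is the activating enzyme of the autophagy conjugation system, and CCDC62 is a coiled-coil protein that binds GOPC in mouse. SPACA1 lies in the acrosomal membrane, and DPY19L2 lies in the inner nuclear membrane, where it holds the acrosome to the nucleus. In humans, deletion of DPY19L2 is the commonest known genetic cause of globozoospermia, and mutations of SPATA16 and PICK1 also cause it. For GOPC, ICA1L, CCDC62, ATG7 and SPACA1 the roles named here are known from mice.

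Total counts per library ran from 22910156 to 33801617. The labelled cell types were checked with markers. The summed level of 7 pachytene markers lay at 1182 to 1325 CPM (the counts scaled to library size) in PAC, against 365 to 381 in RS and 365 to 481 in ES. All 6 round spermatid markers were called higher in RS than in PAC and 5 of them lower in ES than in RS. The other, Tssk6, rose from a mean of 626 CPM in RS to 2701 in ES. With it the summed level of the 6 was 366 to 477 CPM in PAC, 1584 to 1690 in RS and 2812 to 3562 in ES. All 7 elongating spermatid markers rose at both steps. Markers of other testis cells were present. The summed level of 10 Sertoli cell markers was 39.7 to 85.7 CPM in PAC, only 8.79 to 9.94 in RS and as high as 262 to 296 in ES, and Amh had no counts in RS. For 6 Leydig cell markers the range was 78.7 to 111 CPM in PAC, 1.75 to 2.04 in RS and 17.2 to 22.4 in ES. For 9 macrophage and blood markers it was 5.44 to 6.71, 18.2 to 21.9 and 140.5 to 224 CPM. ES replicate 1 stood apart: its 10 most abundant features held 14.2% of its counts, against 8.25% and 8.85% in the other ES libraries.

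The 8 genes did not share a single time course. Spaca1 was highest in round spermatids, the stage at which the acrosome forms, while Dpy19l2, Spata16 and Gopc were highest in pachytene spermatocytes, before that stage. Atg7 was highest in elongating spermatids. Pick1 was lowest in elongating spermatids and had no single highest cell type, and Ica1l and Ccdc62 had neither a highest nor a lowest cell type. Here a gene was highest or lowest where edgeR's quasi-likelihood test called it higher or lower against both other cell types, at a Benjamini-Hochberg adjusted p below 0.05. By this rule 3 of 8 genes were highest in PAC, against 33.3% of the 14836 protein-coding genes tested, 1 of 8 in RS, against 10.7%, and 1 of 8 in ES, against 14.7%. Lowest in ES were 3 of 8 (Dpy19l2, Spata16 and Pick1), against 12.1% of protein-coding genes, and lowest in RS was 1 of 8 (Gopc), against 20.1%. The place of Dpy19l2 and Spata16 rests on small differences between PAC and RS, which were lost under settings named below. Levels are shares of each library's RNA, and fewer cells of a type and less RNA per cell cannot be told apart in them.

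**Figure D1:**
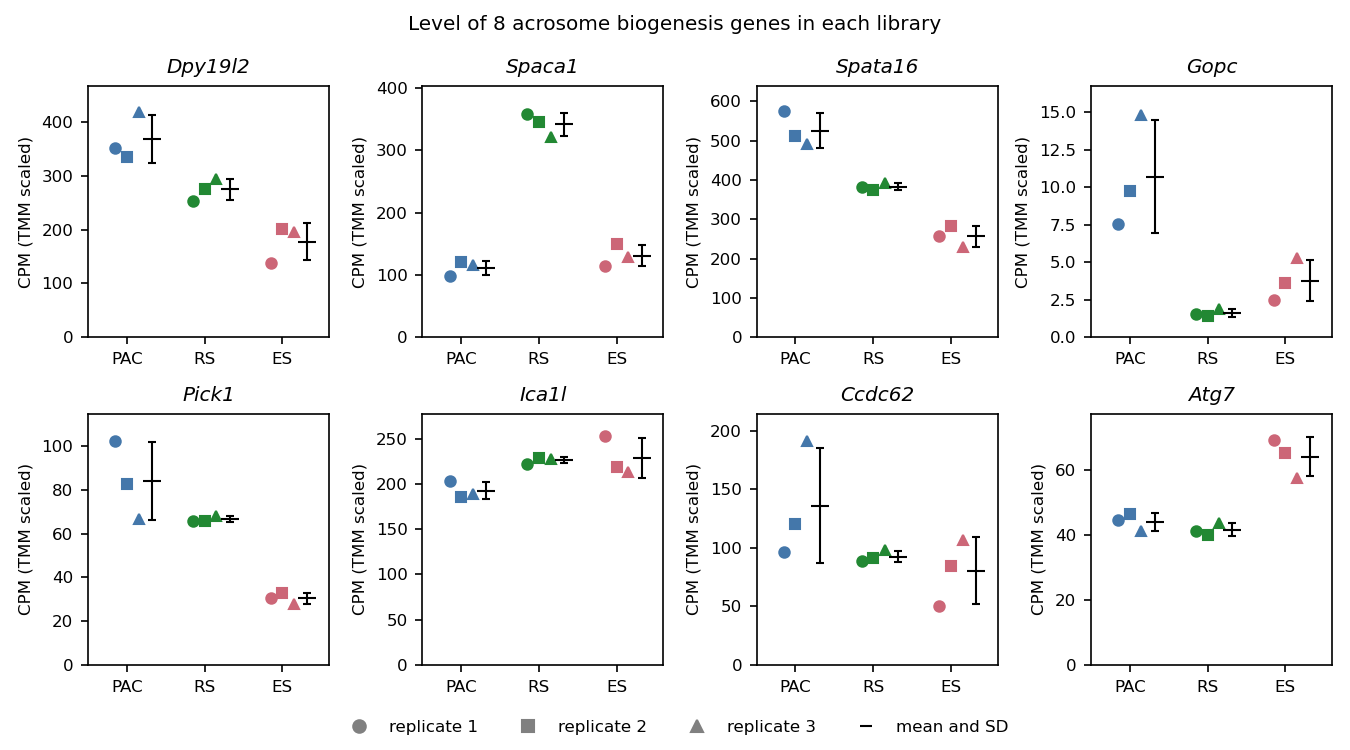
CPM of the 8 genes in each library, by cell type (PAC, RS, ES), with points for the 3 replicates and a bar for mean and SD. The 3 RS libraries of Spaca1 lie between 322 and 359 CPM, above every PAC and ES library, while Dpy19l2 and Spata16 step down from PAC to RS to ES.

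Spaca1 (gene 67652, chromosome 4, 34024872 to 34050067, minus strand, GRCm38.p6) encodes a membrane protein of the acrosome that is needed for its shape in mouse. It was at 98.8, 120.4 and 116 CPM in PAC replicates 1, 2 and 3, at 359, 345 and 322 CPM in RS, and at 115, 149.5 and 129 CPM in ES. All RS libraries lay above all others, and the PAC and ES libraries overlapped. Spaca1 rose 3.06-fold from PAC to RS (log2 fold change 1.61, SE 0.14, adjusted p = 2.37e-06) and fell 2.61-fold from RS to ES (log2 fold change -1.38, SE 0.14, adjusted p = 1.89e-05; both edgeR). Between ES and PAC the log2 fold change was 0.23 (SE 0.14, adjusted p = 0.16), and it was called with upper-quartile scaling (0.54, adjusted p = 0.00415) and with DESeq2 (0.32, adjusted p = 0.0323). It was the only one of the 8 genes called higher in RS than in PAC, where 26.3% of protein-coding genes were called higher. With upper-quartile scaling, or without ES replicate 1, Ica1l was called higher as well.

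The 250 bases before the start of Spaca1 (RefSeq, GRCm38.p6, chr4:34050066-34050315, minus strand) are shown because this gene alone peaked in round spermatids. The starts are those of the promoter table, here and for the windows shown later, and need not be the ends of the gene spans given. The windows of Spaca1, Dpy19l2, Spata16, Pick1 and Ica1 lie partly and that of Ica1l wholly within the span. For Spaca1 the first of 2 starts listed is shown. Capitals mark TGACG, the half-site of the cAMP response element (CRE). CREM, the transcription activator of haploid germ cells, is known to bind that element.
Spaca1: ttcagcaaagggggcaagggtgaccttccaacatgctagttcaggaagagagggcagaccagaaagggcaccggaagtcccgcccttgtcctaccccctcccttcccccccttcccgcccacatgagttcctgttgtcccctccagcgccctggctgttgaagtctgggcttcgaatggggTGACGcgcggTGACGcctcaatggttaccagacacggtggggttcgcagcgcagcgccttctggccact
The window holds 2 half-sites in the same orientation, the nearer ending 54 bases before the start. On either strand TGACG was found in 17.8% of 32851 promoter windows of this length, and 3.90% held 2 or more. The full element TGACGTCA was in 1.55% of windows and in none of the windows of the 8 genes.

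Dpy19l2 (gene 320752, chromosome 9, 24557047 to 24696457, minus strand) was at 351, 334 and 418 CPM in PAC, at 254, 275 and 294 CPM in RS, and at 137, 201 and 195 CPM in ES. The 3 cell types did not overlap, and ES replicate 1 was the lowest library. Dpy19l2 fell 1.54-fold between RS and ES (log2 change -0.63, SE 0.16, adjusted p = 0.00836) and was 2.07-fold lower in ES than in PAC (-1.05, SE 0.16, adjusted p = 0.000165; both edgeR). Without ES replicate 1 these differences were -0.47 and -0.89, and both were still called. The smaller fall from PAC to RS (-0.42, SE 0.16, adjusted p = 0.035) was lost without PAC replicate 3 (-0.32), without RS replicate 1 (-0.36), 2 (-0.41) or 3 (-0.47), with no filter on low counts (-0.40) and on the log2(FPKM + 1) scale (-0.36). Cypt4, a protein-coding gene with 4191 to 5727 counts in PAC, 22897 to 28527 in RS and 10776 to 16122 in ES, lies on the opposite strand within the span of Dpy19l2. No exon of the annotated Dpy19l2 transcript overlaps it.

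Spata16 (gene 70862, chromosome 3, 26637620 to 26983249, plus strand) encodes a testis protein of the Golgi and of proacrosomal vesicles. It was at 574, 512 and 490.3 CPM in PAC, at 382, 373 and 392 CPM in RS, and at 256, 283 and 230.3 CPM in ES. As for Dpy19l2, each cell type lay wholly below the one before. Spata16 fell 1.37-fold from PAC to RS (log2 fold change -0.46, SE 0.13, adjusted p = 0.00649) and 1.49-fold from RS to ES (-0.58, SE 0.13, adjusted p = 0.00307), and was 2.05-fold lower in ES than in PAC (-1.03, SE 0.13, adjusted p = 2.73e-05; all edgeR). Upper-quartile scaling moved the median log2 fold change of all features in RS against PAC by 0.31 and in ES against PAC by 0.30. With it the falls from PAC to RS were no longer called for Spata16 (-0.15) or for Dpy19l2 (-0.11), and the differences between ES and PAC still were (-0.73 and -0.75).

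The 250 bases before the starts of Dpy19l2 (chr9:24696294-24696543, minus strand) and Spata16 (chr3:26637381-26637630, plus strand; both RefSeq, GRCm38.p6) are set beside that of Spaca1, since both genes were highest in PAC.
Dpy19l2: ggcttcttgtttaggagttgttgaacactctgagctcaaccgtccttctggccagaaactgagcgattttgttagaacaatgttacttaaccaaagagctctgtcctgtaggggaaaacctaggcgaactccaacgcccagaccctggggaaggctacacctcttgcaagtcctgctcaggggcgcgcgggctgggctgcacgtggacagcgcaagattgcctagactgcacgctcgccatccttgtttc
Spata16: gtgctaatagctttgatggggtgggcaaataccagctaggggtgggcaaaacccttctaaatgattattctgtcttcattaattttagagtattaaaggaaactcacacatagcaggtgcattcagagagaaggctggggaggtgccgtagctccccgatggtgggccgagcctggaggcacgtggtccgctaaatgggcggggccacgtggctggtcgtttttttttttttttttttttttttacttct
Neither window holds TGACG, nor GTTGCC, the half-site of RFX factors, which was in 10.4% of windows. The core AACNG of the MYB family, to which the pachytene regulator MYBL1 belongs, was found 2 times in the Dpy19l2 window and not in that of Spata16, while 74.2% of all windows held it. Gopc, the other gene highest in PAC, does hold 1 TGACG half-site in its window, ending 156 bases before the start, and no RFX half-site. All motifs were searched on both strands, and TGACG is itself contained in the full element TGACGTCA.

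Pick1 (gene 18693, chromosome 15, 79229140 to 79249466, plus strand) encodes a protein with a PDZ domain and a membrane-bending BAR domain that acts on vesicles from the Golgi. It was at 103, 82.7 and 66.9 CPM in PAC, at 65.8, 65.7 and 68.2 CPM in RS, and at 30.5, 33.0 and 27.9 CPM in ES. The PAC libraries spread widely and reached down into the range of RS, while all ES libraries lay lower. Pick1 fell 2.19-fold between RS and ES (log2 change -1.13, SE 0.16, adjusted p = 0.000184) and was 2.76-fold lower in ES than in PAC (-1.46, SE 0.16, adjusted p = 1.33e-05; both edgeR). The difference of -0.34 between RS and PAC did not pass (SE 0.16, adjusted p = 0.0737), but did without PAC replicate 3 (-0.47) and with DESeq2's size factors (-0.40).

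Gopc (gene 94221, chromosome 10, 52337024 to 52382124, minus strand) encodes a PDZ protein of the Golgi that binds PICK1 in mouse. It was the least abundant of the 8, with 46 to 412 counts per library. Its level was 7.53, 9.76 and 14.8 CPM in PAC, 1.54, 1.42 and 1.90 CPM in RS, and 2.49, 3.60 and 5.25 CPM in ES. No cell type overlapped another, and RS was lowest. Gopc fell 6.60-fold from PAC to RS (log2 fold change -2.72, SE 0.32, adjusted p = 2.09e-05), rose 2.34-fold from RS to ES (1.23, SE 0.33, adjusted p = 0.00912) and was 2.82-fold lower in ES than in PAC (-1.50, SE 0.31, adjusted p = 0.00121; all edgeR). The rise from RS to ES did not pass on the log2(FPKM + 1) scale (0.32, limma adjusted p = 0.208). The added 1 exceeds the mean FPKM of Gopc in RS (0.411) and ES (0.782), which shrinks the difference. With 0.1 added instead it was 0.71 (limma adjusted p = 0.124), also not called. These 2 scales moved the median of all features in this comparison by -0.18 and -0.34. Of the 9 Sertoli cell markers tested 8 fell from PAC to RS and 9 rose from RS to ES, and so did 6 and 6 of the 6 Leydig cell markers (summed levels above). Among the 7 pachytene markers 6 fell from PAC to RS, and from RS to ES 3 rose and 2 fell. The part of Sertoli, Leydig or pachytene cells in the values of Gopc was not tested.

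Ica1l (gene 70375, chromosome 1, 59985796 to 60043481, minus strand) encodes a BAR-domain partner of PICK1. It was at 203, 186 and 189 CPM in PAC, at 222, 228 and 228 CPM in RS, and at 253, 219 and 213 CPM in ES. All RS and ES libraries lay above all PAC libraries, by little. The log2 fold change was 0.23 for RS against PAC (SE 0.12, adjusted p = 0.0988), 0.02 for ES against RS (SE 0.12, adjusted p = 0.928) and 0.25 for ES against PAC (SE 0.12, adjusted p = 0.089), and edgeR called none of them. At unadjusted p the values were 0.0771, 0.9 and 0.0618. DESeq2 called it higher in ES than in PAC (0.34, adjusted p = 0.0195).

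Ccdc62 (gene 208908, chromosome 5, 123930425 to 123969895, plus strand) was at 96.4, 120.2 and 191 CPM in PAC, at 88.6, 90.9 and 98.1 CPM in RS, and at 49.9, 84.7 and 107 CPM in ES. The cell types overlapped in every comparison, and the spread within PAC and within ES was 49.4 and 28.6 CPM (SD, n = 3) against 4.98 in RS. The difference of -0.76 between ES and PAC was called (SE 0.29, adjusted p = 0.0401), but lay close to the threshold. The value was smaller without PAC replicate 3 (-0.45) or ES replicate 1 (-0.50), with upper-quartile scaling (-0.45) and in a fit of these 2 cell types (-0.55), and was not called in any of them. The call was also lost, at about the same value, without RS replicate 1 (-0.76), 2 (-0.76) or 3 (-0.76), without ES replicate 2 (-0.80) and with no filter on low counts (-0.78). The differences of -0.56 between RS and PAC (adjusted p = 0.104) and of -0.20 between ES and RS (adjusted p = 0.598) did not pass edgeR's test. That of RS against PAC passed without PAC replicate 1 (-0.75) or ES replicate 1 (-0.55) and with DESeq2 (-0.61).

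Atg7 (gene 74244, chromosome 6, 114643127 to 114860604, plus strand) was at 44.6, 46.5 and 41.0 CPM in PAC, at 41.2, 39.9 and 43.8 CPM in RS, and at 69.3, 65.2 and 57.5 CPM in ES. PAC and RS overlapped, and all ES libraries lay above both. Atg7 rose 1.54-fold between RS and ES (log2 change 0.62, SE 0.13, adjusted p = 0.00214) and was 1.45-fold higher in ES than in PAC (0.54, SE 0.13, adjusted p = 0.00298; both edgeR). Between RS and PAC the difference was -0.08 (SE 0.13, adjusted p = 0.581), with the opposite sign under upper-quartile scaling (0.23) and on the log2(FPKM + 1) scale (0.29), neither called. From RS to ES 9 of 9 tested Sertoli cell markers and 6 of 8 tested macrophage and blood markers rose as well, and their part in the rise of Atg7, a gene that most cells express, was not tested.

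**Figure D2:**
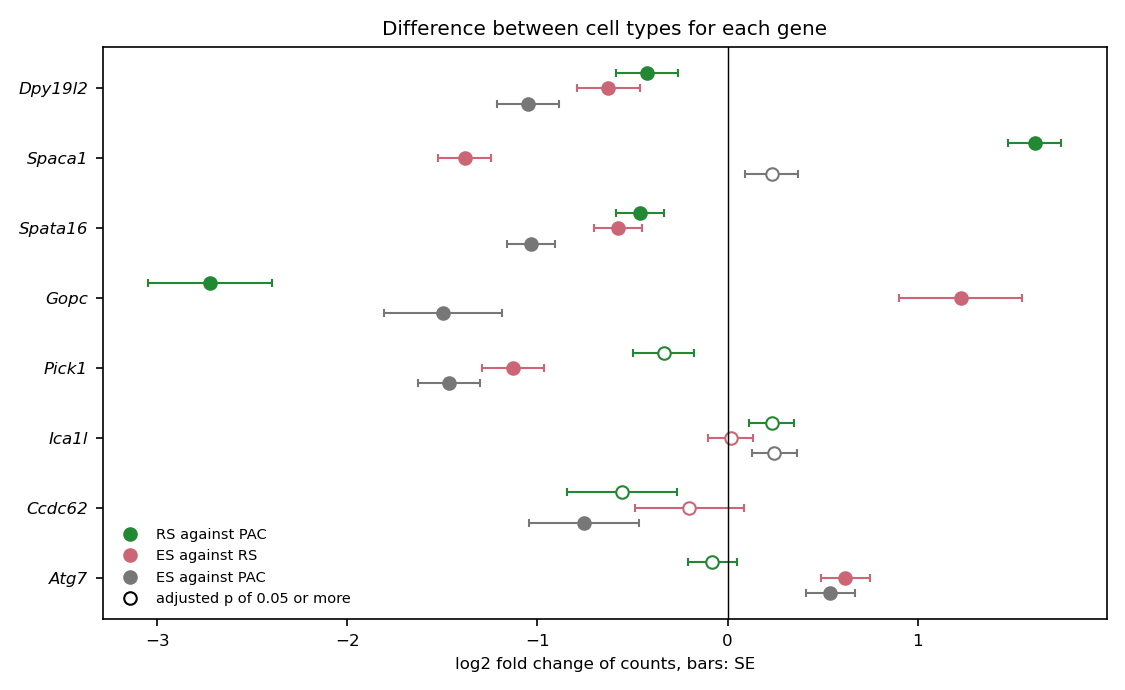
Log2 fold change of counts of each gene in RS against PAC, ES against RS and ES against PAC, with bars for the SE; filled points have an adjusted p below 0.05 (edgeR). Spaca1 is at 1.61 and -1.38 in the first 2 comparisons, Gopc at -2.72 and 1.23, and the 3 open points of Ica1l lie near 0.

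In counts over the 8 genes, 1 rose and 3 fell from PAC to RS, where 26.3% of protein-coding genes were called higher and 46.9% lower. From RS to ES 2 rose and 4 fell, where 31.8% were called higher and 21.7% lower. In ES against PAC 1 was higher and 5 lower, against 25.2% and 42.6%. The median log2 fold change of the 8 was -0.38, -0.39 and -0.90 in these comparisons, beside -0.46, 0.18 and -0.39 over the protein-coding genes and 0.11, 0.05 and -0.09 over all 26030 features tested. With upper-quartile scaling 2 rose and 1 fell from PAC to RS, and 3 were higher in ES than in PAC. That scaling moved the median of all features by 0.31 and 0.30 in these 2 comparisons. Shares of protein-coding genes called under it were not counted.

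Levels per length were read from the deposited FPKM values (fragments scaled to length and to library size). In PAC Spata16 was first of the 8 with 276 FPKM ± 18.6 (SD, n = 3), followed by Dpy19l2 with 113 ± 12.6 and Spaca1 with 108 ± 13.5, which overlapped each other. Below them came Ica1l with 65.2 ± 3.73, Ccdc62 with 54.4 ± 19.8 and Pick1 with 44.5 ± 8.92, of which Ccdc62 overlapped both others, and then, with no overlap, Atg7 with 16.6 ± 1.84. In RS Spaca1 came first with 343 FPKM ± 19.8, above Spata16 with 214 ± 6.004, Dpy19l2 with 87.5 ± 6.09 and Ica1l with 71.6 ± 1.21. Among 21405 protein-coding genes ranked by mean FPKM, Spaca1 was number 940 for PAC, number 321 for RS and number 881 for ES. In ES Spata16 with 116 FPKM ± 18.3 and Spaca1 with 106 ± 23.8 overlapped. Gopc was last in each cell type, with 2.62 ± 0.917, 0.411 ± 0.0635 and 0.782 ± 0.344 FPKM. Its rank was 9095, 11866 and 11309 in PAC, RS and ES, and the other 7 genes ranked between 277 and 4427 in each cell type.

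**Figure D3:**
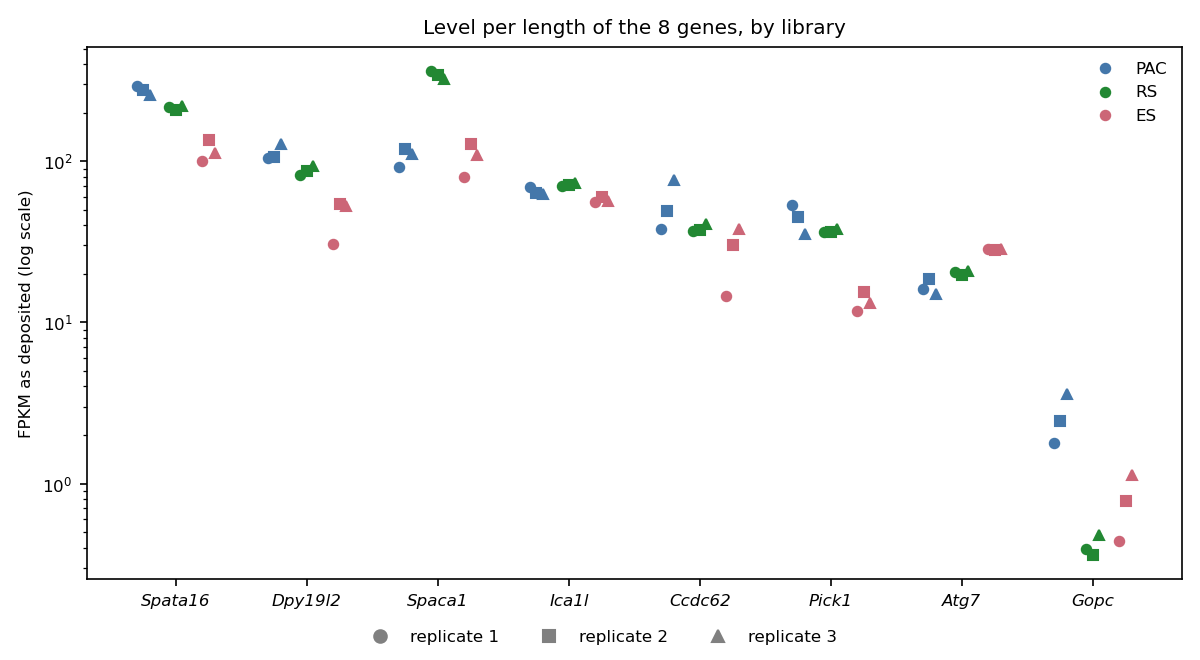
Deposited FPKM of the 8 genes on a log scale, ordered by their PAC mean, with colours for the cell types and symbols for the replicates. Spaca1 moves from the third place in PAC to the first in RS, and Gopc lies below 4 FPKM in every library.

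Within each library the ratio of Spaca1 to Dpy19l2, the membrane protein gene of the acrosome over that of the nuclear envelope, was 0.881, 1.13 and 0.869 in PAC, on the FPKM scale. In RS it was 4.44, 3.94 and 3.44, and in ES 2.605, 2.34 and 2.09. The cell types did not overlap. The pair was picked for its contrast, so these ratios are a description.

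Paralogs of 2 of the genes could be set beside them. Ica1, which encodes the other ICA1-family BAR protein and also binds PICK1, was at 31.7, 45.6 and 55.2 CPM in PAC, at 142, 142 and 141 CPM in RS, and at 215, 146 and 156 CPM in ES. Ica1 rose 3.21-fold from PAC to RS (log2 fold change 1.68, SE 0.21, adjusted p = 2.67e-05) and was 3.90-fold higher in ES than in PAC (1.96, SE 0.21, adjusted p = 9.98e-06; both edgeR). The ratio of Ica1l to Ica1 in FPKM was 2.76, 1.74 and 1.67 in PAC, 0.553, 0.554 and 0.567 in RS and 0.352, 0.487 and 0.447 in ES, with no overlap between cell types. In a two-sided exact permutation test each of these steps gave p = 0.1, the smallest that 3 libraries against 3 allow, and p = 0.12 after Benjamini-Hochberg adjustment over 6 comparisons, so that neither can pass 0.05.

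Ica1l and Ica1 are also shown by sequence, with Pick1, whose product binds both of theirs. The 250 bases before the starts are from RefSeq, GRCm38.p6: Ica1l at chr1:60043123-60043372, minus strand, Ica1 at chr6:8778485-8778734, minus strand, the first of 2 starts listed, and Pick1 at chr15:79228923-79229172, plus strand, likewise the first of 2. Capitals mark TGACG or its reverse CGTCA, and GTTGCC or its reverse GGCAAC.
Ica1l: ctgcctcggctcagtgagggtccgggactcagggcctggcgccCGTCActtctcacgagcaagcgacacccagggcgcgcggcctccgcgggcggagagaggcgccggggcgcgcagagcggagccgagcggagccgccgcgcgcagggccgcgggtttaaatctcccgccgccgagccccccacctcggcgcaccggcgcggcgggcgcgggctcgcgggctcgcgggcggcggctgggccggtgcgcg
Ica1: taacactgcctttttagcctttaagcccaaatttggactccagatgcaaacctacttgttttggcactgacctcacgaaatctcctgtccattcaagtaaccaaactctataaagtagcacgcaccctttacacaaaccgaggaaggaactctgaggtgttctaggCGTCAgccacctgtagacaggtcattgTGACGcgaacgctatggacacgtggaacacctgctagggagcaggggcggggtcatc
Pick1: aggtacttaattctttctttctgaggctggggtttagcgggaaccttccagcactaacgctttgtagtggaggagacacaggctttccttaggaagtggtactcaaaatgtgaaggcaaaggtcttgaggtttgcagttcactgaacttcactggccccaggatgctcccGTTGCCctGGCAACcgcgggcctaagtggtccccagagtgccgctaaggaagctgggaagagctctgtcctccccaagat
Ica1 holds 2 CRE half-sites in opposite orientations, the nearer ending 52 bases before the start, and Ica1l holds 1, which ends 202 bases before it. The second Ica1 window holds none. The Ica1l window is 80.4% G and C with 45 CpG, that of Ica1 49.6% with 9, and the median over all windows is 52.4% with 6. Pick1 holds 2 RFX half-sites that face each other 2 bases apart, the nearer ending 66 bases before the start, and 0.740% of all windows hold 2 or more in any arrangement. A match to AACNG overlaps each of these half-sites. The window of the second Pick1 start holds only 1 RFX half-site, ending 59 bases before that start.

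Of the relatives of Dpy19l2, which encode C-mannosyltransferases or proteins like them, Dpy19l1 had 147 ± 7.09 CPM (SD, n = 3) in PAC, rose to 195 ± 13.4 in RS and fell to 86.4 ± 11.6 in ES. Its log2 fold changes were 0.41 (adjusted p = 0.015) and -1.18 (adjusted p = 4.17e-05; edgeR), the first not called without RS replicate 2 (0.38). Dpy19l4 followed the order of Gopc, with 19.9 ± 1.99 CPM in PAC, 4.92 ± 0.963 in RS and 8.72 ± 0.949 in ES, and was called in all 3 comparisons (log2 fold change -2.01, 0.83 and -1.19). The rise of Dpy19l4 from RS to ES was not called on the log2(FPKM + 1) scale (0.14), and the part of the Sertoli and Leydig cell markers, which also fell and rose, was not tested. Dpy19l3 stayed under 3 CPM in every library and was not called. It was called higher in RS than in PAC with upper-quartile scaling (0.76) and lower in ES than in RS without ES replicate 3 (-0.88). Dpy19l2 fell from PAC to RS where Dpy19l1 rose, and the FPKM ratio of Dpy19l2 to Dpy19l1 was 2.53, 2.22 and 3.07 in PAC against 1.41, 1.30 and 1.46 in RS (exact permutation p = 0.1, adjusted p = 0.12 over 6 comparisons). In ES the ratio was 1.11, 1.71 and 1.96, which overlapped RS (exact permutation p = 0.6) and lay below PAC (p = 0.1).

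**Figure D4:**
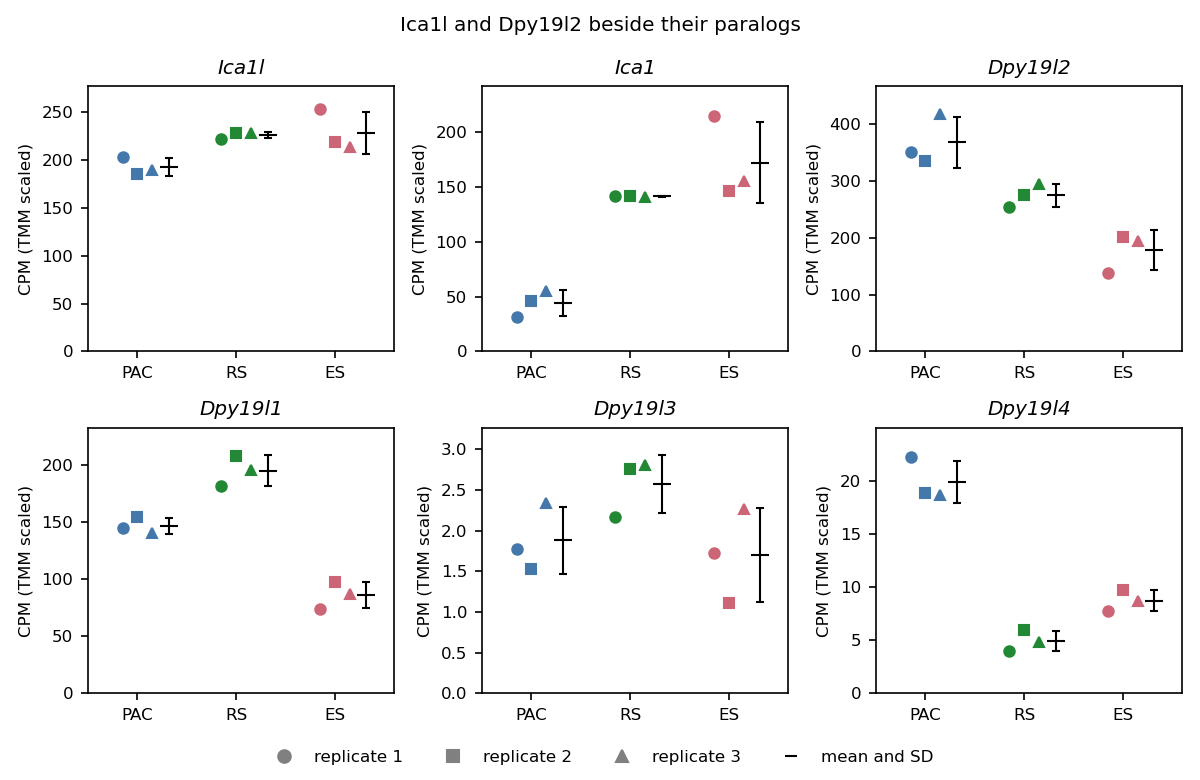
CPM of Ica1l and Ica1 and of the 4 Dpy19l genes in each library, with points for replicates and bars for mean and SD. Ica1l stays between 186 and 253 CPM while Ica1 goes from 31.7 to 55.2 in PAC to 141 or more in every RS and ES library.

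Among 24 other genes with a part in acrosome formation, 8 rose and 9 fell from PAC to RS (median change -0.16 on the log2 scale), where 26.3% of protein-coding genes were called higher and 46.9% lower. Those with the largest rise were Actrt1, an actin-related gene of the perinuclear theca, from 10.1 ± 1.60 CPM (SD, n = 3) to 54.0 ± 1.75, and Fam71f1 (also Garin1b), a Golgi-associated Rab interactor gene, from 96.4 ± 15.8 to 404 ± 23.0. Those with the largest fall were Fads2, a fatty acid desaturase gene, from 4.77 ± 0.895 to 0.272 ± 0.0856 CPM, and Vps54, a gene of the GARP tethering complex of the Golgi, from 26.4 ± 0.933 to 5.55 ± 0.0888. Their log2 fold changes were 2.41, 2.07, -4.12 and -2.25 (edgeR adjusted p = 4.04e-06, 2.76e-05, 1.27e-06 and 3.25e-07). Fads2 had only 7 to 12 counts per RS library, so its folds against RS are imprecise.

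From RS to ES 9 of the 24 rose and 5 fell, beside 31.8% and 21.7% of protein-coding genes, with a median of 0.10, and only 5 rose when any 1 RS library was left out. Fads2 rose to 4.51 ± 1.15 CPM (log2 fold change 4.04, adjusted p = 5.56e-06), the cell type with the highest Sertoli markers, whose part was not tested. Tbc1d20, which encodes a GTPase-activating protein for Rab1, rose from 247 ± 19.5 to 986 ± 117 CPM (1.998, adjusted p = 2.64e-06). The zona pellucida binding protein genes Zpbp2 and Zpbp, both of the acrosomal matrix, fell from 209 ± 19.7 to 98.4 ± 13.0 CPM and from 622 ± 25.8 to 303 ± 12.4 CPM (-1.09 and -1.04; adjusted p = 0.000199 and 4.49e-05; edgeR). In ES against PAC 9 were higher and 11 lower, beside 25.2% and 42.6%, with a median of -0.19. Tbc1d20 and Actrt1 were highest by fold (3.52 and 3.05). Hsp90b1, the chaperone of the endoplasmic reticulum, and Slc9a8, a sodium-proton exchanger gene, were lowest (-1.51 and -1.25).

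Atg7 was set beside 14 genes of the same conjugation system, of which 2 rose and 6 fell from PAC to RS (median change -0.39 on the log2 scale), beside 26.3% and 46.9% of protein-coding genes. Gabarapl1 and Map1lc3a, which encode ubiquitin-like proteins that this system attaches to lipid, rose from 125 ± 21.1 to 343 ± 12.9 CPM (SD, n = 3) and from 186 ± 25.1 to 289.7 ± 13.5. Atg16l1, a scaffold gene of the conjugating complex, fell from 2.96 ± 0.346 to 0.435 ± 0.0786 CPM, and Atg4d, a processing protease gene, from 78.0 ± 17.5 to 23.9 ± 2.51. The log2 fold changes of Gabarapl1, Map1lc3a, Atg16l1 and Atg4d were 1.46, 0.64, -2.76 and -1.71 (edgeR adjusted p = 0.000358, 0.00317, 5.78e-06 and 1.33e-05). Atg16l1 had only 13 to 17 counts per RS library. From RS to ES 5 rose and 1 fell, beside 31.8% and 21.7%, with a median of 0.06. Atg16l1 rose to 3.17 ± 0.501 CPM (2.86, adjusted p = 1.41e-05), in the cell type with the highest Sertoli markers, whose part was not tested. Gabarapl1 rose to 828 ± 349.7 (1.27, adjusted p = 0.00173), with 1231 CPM in ES replicate 1 against 624 and 627 in the other ES libraries. The 1 that fell was Atg4c (-0.45, adjusted p = 0.0316), and it was not called without RS replicate 2 (-0.47) or 3 (-0.36) or ES replicate 1 (-0.43) or 3 (-0.38).

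In ES against PAC 3 of the 14 were higher and 5 lower, beside 25.2% and 42.6% of protein-coding genes, with a median of -0.31. Gabarapl1 and Map1lc3a were highest by fold (log2 fold change 2.73 and 1.45) and Atg4d and Atg12, the gene of the ubiquitin-like protein joined to ATG5, lowest (-1.88 and -0.96). Atg7 itself was called higher in ES against both other cell types, at a smaller fold than Gabarapl1 and Map1lc3a.

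The 2 deposited tables also imply a length. A count divided by its FPKM and by the library's total gives it in kb, here with each library set to the same median over features. Whether the authors divided each count by 1 such length is not stated. For Dpy19l2 the implied length was 3.43 kb ± 0.00657 (SD, n = 3) in PAC and 3.42 ± 0.0204 in ES, beside 3.44 kb of its 1 transcript in GENCODE M21. For Atg7 it was 2.84, 2.70 and 2.86 kb in PAC, 2.21, 2.19 and 2.29 kb in RS, and 1.85, 2.14 and 1.86 kb in ES, with no overlap between cell types. The ES value of Atg7 was 0.696 of the PAC value, and 2.73% of 6165 protein-coding genes with a mean count over 500 had a lower ratio (median 0.9996, 10th to 90th percentile 0.875 to 1.02). GENCODE lists 12 coding transcripts of Atg7, of 0.34 to 3.90 kb (3.895 at the longest). The FPKM of Atg7, from which this length was derived, had means of 16.6 ± 1.84 for PAC, 20.4 ± 0.585 for RS and 28.5 ± 0.187 for ES.

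Ica1l had the opposite order of lengths, with 3.0005, 3.15 and 3.17 kb in PAC, 3.48, 3.46 and 3.42 kb in RS, and 3.48, 3.41 and 3.47 kb in ES. The RS value was 1.11 times that of PAC, and 1.67% of the protein-coding genes had a higher ratio. Its FPKM in ES, 57.3 ± 2.03, was below the 71.6 ± 1.21 of RS (log2(FPKM + 1) difference -0.32, limma adjusted p = 0.0379), where counts gave 0.02. The implied length of Ica1l was level in this comparison, with an ES value 0.9996 of that of RS. The TMM factors, used for counts and not for FPKM, were lower in every ES library (0.758 to 0.924) than in any RS library. The log2(FPKM + 1) scale moved the median of all features here by -0.18. The part of scaling in the lower FPKM of Ica1l was not tested. Spata16 went from 1.996 kb ± 0.00756 to 1.95 ± 0.00694 and 1.92 ± 0.0294, and Spaca1, Pick1, Ccdc62 and Dpy19l2 stayed within 2% between cell types. Gopc had too few counts for this ratio. Which transcripts make up these lengths is not shown by gene-level rows.

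**Figure D5:**
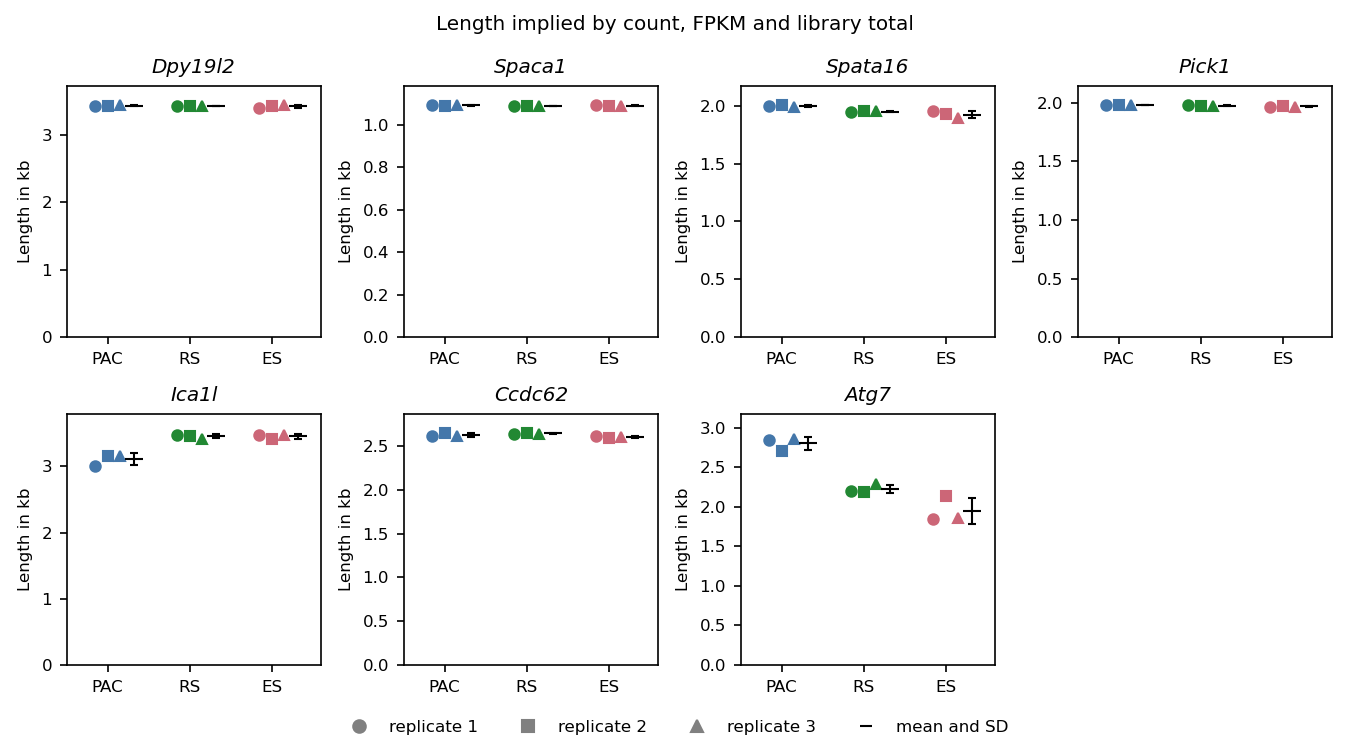
Length in kb implied by count, FPKM and library total for the 7 genes with a mean count over 500, by library and cell type, with bars for mean and SD. Atg7 goes from 2.80 kb in PAC to 1.95 kb in ES and Ica1l from 3.11 to 3.45 kb, while the other 5 genes stay nearly level.

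Among 14954 other named genes, those whose log2 CPM over the 9 libraries was most like a gene of the set were found by Pearson's r, as a description over 3 cell types. For Spaca1 they were Stag2 (r = 0.998; 39.8, 114 and 46.6 CPM in PAC, RS and ES) and Vav3 (r = 0.996). For Dpy19l2 they were Tpp2 (r = 0.995) and Gm7827 (r = 0.993), and for Spata16 Fam120b and Ppid (r = 0.996 and 0.995). For Gopc they were Tpx2 (r = 0.998; 56.7, 16.6 and 27.6 CPM) and Nbeal1 (r = 0.997), and for Pick1 Cct5 and Gtf2f2 (r = 0.997 and 0.996). Ccdc62 was most like Sfmbt1 and Rimbp3 (r = 0.996 and 0.993), Ica1l most like Clec2m and Osbpl1a (r = 0.979 and 0.977), and Atg7 most like Pola1 and Fam234a (r = 0.987 and 0.985). Within the set Spata16 and Pick1 were most alike (r = 0.963), then Dpy19l2 and Spata16 (r = 0.901).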

How the data were processed

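Ribosomal RNA was removed from total RNA, and strand was kept with dUTP, per the labels' protocols. HISAT2, StringTie and the build GRCm38.p6 are listed, per the submitters' processing notes, without the settings or strand option of the counting. The count table was deposited as estimated counts without normalisation. Because 18.8% of the entries were fractional, all were rounded. The FPKM values are used as the authors deposited them, with lengths and totals not stated.

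Symbols and coordinates came from RefSeq's GRCm38.p6 table (21726 of 21877 NCBI genes matched), strands and transcripts from GENCODE M21 of the same build. The filter filterByExpr (10 counts) kept 26030 features and dropped 24463. All 9 libraries entered 1 fit by cell type with TMM factors (0.758 to 1.10), the two-sided robust quasi-likelihood test of edgeR and Benjamini-Hochberg adjustment over all features tested. The SE is the log2 fold change divided by the root of its F. FPKM alternatives used limma with pseudocounts of 1 and 0.1. Other alternatives were DESeq2's size factors and test, upper-quartile factors, no filter, a fit of the 2 cell types compared, a replicate block and leaving out each library. The test was first tried on simulated counts. It recovered 0 to 4.48% of 1.5-fold, 23.9 to 31.3% of 2-fold and 81.8 to 84.8% of 4-fold changes, with 5 to 7 false calls per comparison. Only 66 or 67 features were changed per fold, against 12126 to 18863 features called in the data. These rates therefore need not hold for the data.

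The members and gene lists were chosen with earlier results of these data known, and the promoter motifs and the sequences shown after the values were seen. All 8 members are named. From the acrosome and autophagy lists, the 2 called genes with the largest rise and fall per comparison are named, and of the paralogs all. Among the 8 genes counting error matters most for Gopc. Depth alone does not set the precision. Ccdc62, with 924 to 5311 counts per library, had an SE of 0.29 in ES against PAC, close to the 0.31 of Gopc. The tests of edgeR, DESeq2 and limma set a difference against the spread between these libraries, estimated with the help of all features. Tests ran in R 4.3.3 (edgeR 4.0.16, limma 3.58.1 and, as an alternative, DESeq2 1.42.0), and sequences and plots in Python 3.11.15 with pandas 2.3.3 and matplotlib 3.10.9.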

Additional observations from a re-analysis of the deposited data

How the results depend on the processing

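Of 432 values of the 8 genes under alternatives, 375 kept their direction and their side of the threshold, 22 lost a call, 15 gained one and 20 changed sign. The rise and fall of Spaca1 between RS and its neighbours, the falls of Pick1 to ES, the fall of Gopc to RS and the rise of Atg7 to ES were called under every alternative run.

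With upper-quartile factors 2 of the 8 genes rose and 1 fell from PAC to RS, 3 were higher in ES than in PAC, 4 autophagy genes rose from PAC to RS and 3 were lower in ES than in PAC. With DESeq2's test 5 of the 8 fell from PAC to RS and 3 were higher in ES than in PAC (2 with its size factors alone or in a fit of these 2 cell types), and 0 autophagy genes fell from RS to ES with its test or its size factors. On the FPKM scales 1 of the 8 rose from RS to ES, 9 other acrosome genes fell, 5 rose with a pseudocount of 0.1 and 4 with no filter. For autophagy genes 3, 2 and 2 fell from RS to ES with log2(FPKM + 1), log2(FPKM + 0.1) and no filter. In ES against PAC 8 of them were lower on each FPKM scale, against 3 in a fit of these 2 cell types. The settings also moved the median of all features. In RS against PAC it moved by 0.31 with upper-quartile factors and by -0.06 with DESeq2's test. In ES against PAC it moved by 0.30 and 0.08. From RS to ES log2(FPKM + 1) moved it by -0.18 and log2(FPKM + 0.1) by -0.34. Shares of protein-coding genes called under each setting were not counted, so these counts cannot be set beside them.

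Leaving out 1 library at a time gave 1 to 2 of the 8 genes risen from PAC to RS, 5 to 9 other acrosome genes risen from RS to ES and 0 to 1 autophagy genes fallen there. Signs changed mostly for values near 0. Atg7 in RS against PAC was 0.23 with upper-quartile factors and 0.29, 0.31 and 0.29 on the FPKM scales. Ica1l in ES against RS was -0.0304 with no filter, -0.32 on each FPKM scale and -0.0652 to 0.0518 without 1 library, and in ES against PAC -0.18 on each FPKM scale. Spaca1 in ES against PAC was -0.0420, -0.0426 and -0.0420 on the FPKM scales. Ccdc62 in ES against RS ran from -0.47 to 0.0493 without 1 library. Dpy19l3 in ES against PAC was 0.16 with upper-quartile factors, 0.0606 in a fit of these 2 cell types and -0.42 to 0.0893 without 1 library. The cause of these changes was not tested.

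With a replicate block, Ccdc62 was called lower in RS than in PAC (-0.48, adjusted p = 0.0338; edgeR), and no other call of the 8 genes changed. The block moved the features called from 18863 to 19067 for RS against PAC. Same-numbered libraries correlated at -0.04 to 0.27 in their deviations from the cell type means, and not every library was most like its own number. The labels do not say whether the numbers pair the libraries, and these correlations cannot decide it. Gopc, with 46 to 111 counts per library in spermatids, is the one of the 8 genes most limited by depth.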

Other observations

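Libraries of the same cell type differed in step for some genes, which were chosen after their values were seen. In PAC, replicate 3 was the highest library for Dpy19l2, Gopc and Ccdc62, with 418, 14.8 and 191 CPM. The same library was highest for Sec23ip, which encodes a partner of the COPII coat, at 159 CPM against 79.7 and 100.8 in replicates 1 and 2, and for Iqcn, a calmodulin-binding gene of spermatids, at 62.1 against 14.6 and 37.4. In ES, replicate 1 was the lowest library for these 5 genes: Sec23ip was at 50.8 CPM against 88.1 and 97.5, and Iqcn at 166 against 236 and 359.9. Pick1 had the opposite order in PAC, with 103 CPM in replicate 1 and 66.9 in replicate 3.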
